A study of Mus musculus with 17 samples.

Results

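Schwann cells are the glia of peripheral nerves, and in the pancreas they accompany the nerve fibres and ensheath the islets. Sox10, Cdh19, S100b, Gfap, Ngfr, Foxd3 and Erbb3 are genes used to recognise Schwann cells or the neural crest cells they come from, and they were taken as a list of 7 genes. Each had 1 probe set that names it alone, so 7 of the 21789 single-gene probe sets on the array, and 7 of the 19938 genes tested, belong to the list. No member was lost to a filter on low values, since none was applied.

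The tissue was isolated pancreatic islets, taken from mice aged 2 months and hybridised to 17 arrays, which fall into 5 genotype groups by their titles. Men1flf, Rbp2flf, RIP-Cre mice, called the double knockout here, gave 4 arrays, Men1flf, RIP-Cre mice (Men1 knockout) 3 and Rbp2flf, RIP-Cre mice (Rbp2 knockout) 4. RIP-Cre mice without a floxed allele gave 3 arrays and wt mice 3. Arrays of a group are numbered repeats, with nothing to say whether each is another animal, so the p-values speak only of array-to-array spread, which may be technical. All knockout groups and the RIP-Cre group carry the RIP-Cre transgene, in which the rat insulin promoter drives Cre recombinase in beta cells. Schwann cells are not the cells in which this promoter is known to act, so removal would be expected in neighbouring cells. Which cells lost the floxed genes was not measured here. Men1 codes for menin, a scaffold of complexes that methylate histone H3, and Rbp2, now named Kdm5a, codes for a demethylase that removes such marks. The comparisons with RIP-Cre ask what loss of either gene does to the islet, and those among the knockouts ask whether removing Rbp2 changes what follows removal of Men1. The values are from whole islets, in which fewer Schwann cells and less RNA of a gene per Schwann cell cannot be told apart.

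Schwann cells arise from neural crest through a precursor stage that depends on the transcription factor Sox10 and on neuregulin signalling from axons. Mature cells either wrap large axons in myelin or hold bundles of thin axons in unmyelinated folds, and the fibres that reach islets are mainly of the thin, unmyelinated kind. Glia that express Gfap and S100b form an envelope around the islet, and they are known to react when islets are injured or inflamed.

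All deposited values are log2 intensities, and a difference of 1 is a 2-fold difference in intensity. Levels of different genes are not compared, because probe sets differ in brightness. As a rough guide to what dim means here, each gene was set against 1194 olfactory and vomeronasal receptor genes. Most of these were taken to be silent in islets, which was not tested, and the differing brightness limits this guide too. S100b, Ngfr and Sox10 lay above 99.8%, 99.4% and 98.5% of these receptor genes in their mean over the 17 arrays. Erbb3 lay above 93.4%, Foxd3 above 89.4% and Gfap above 88.1% of them. Cdh19 lay above 61.6% and was the nearest to this background. The islet label of the tissue was met by the 10 listed beta cell genes, which all lay above every receptor gene, with Ins2 averaging 13.66, 13.70, 13.63, 13.58 and 13.59 in the double knockout, Men1 knockout, Rbp2 knockout, RIP-Cre and wt islets.

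The arrays differed in overall level in a way that touches every result below. The median over all genes of an array was 7.88 to 7.95 in the double knockout, 7.86 to 7.87 in the Men1 knockout, 7.82 to 7.98 in the Rbp2 knockout, 7.97 to 8.16 in RIP-Cre and 7.99 to 8.10 in wt islets. RIP-Cre array 3 had the highest median of all and the highest level of its group for 6 of the 7 members. Rbp2 knockout array 1 had the lowest median and the lowest level of its group for all 7. The median log2 difference from RIP-Cre over all 19938 genes was -0.15 in the double knockout, -0.23 in the Men1 knockout and -0.13 in the Rbp2 knockout. Differences are therefore given on 3 scales: as deposited, after a cyclic loess normalization that removes shifts depending on signal level, and with each array's median in the model as a covariate. They are also set beside the median difference of genes of like level, meaning the same 1 of 10 equal classes by mean level. The covariate scale has a limit, since the medians of all Men1 and double knockout arrays lay below every RIP-Cre median. In these comparisons array level and genotype go together, and the covariate cannot fully separate them and can take up part of either. Of the targeted genes, Men1 was 8.46 to 8.87 in the double knockout and 8.14 to 8.43 in the Men1 knockout, against 9.31 to 9.49 in RIP-Cre islets. Its level in the Rbp2 knockout, where Men1 is not floxed, was 10.05 to 10.24, above every RIP-Cre array, with a difference of 0.73 (SE 0.11, limma adjusted p = 0.00359). Kdm5a was 9.07 to 9.39 in the double knockout and 8.95 to 9.18 in the Rbp2 knockout, against 9.09 to 9.37 in RIP-Cre islets, a whole-gene signal that did not pass the test in either (limma adjusted p = 0.896 and 0.149). Which exons that probe set covers is not known from the sources used here.

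Promoters of 4 of the 7 members were found in RefSeq's promoter table (build GRCm38.p6) and are shown because CpG-rich promoters are known as sites of the histone methylation that menin complexes write, and because the members differ in this feature. Each line gives the 250 bases before the RefSeq start, 5′ to 3′ on the gene's strand, with every CpG in capitals. The S100b window is chr10:76253586-76253835 (plus strand), the Gfap window chr11:102897201-102897450 (minus strand), the Ngfr window chr11:95587699-95587948 (minus strand) and the Foxd3 window chr4:99656049-99656298 (plus strand).
S100b: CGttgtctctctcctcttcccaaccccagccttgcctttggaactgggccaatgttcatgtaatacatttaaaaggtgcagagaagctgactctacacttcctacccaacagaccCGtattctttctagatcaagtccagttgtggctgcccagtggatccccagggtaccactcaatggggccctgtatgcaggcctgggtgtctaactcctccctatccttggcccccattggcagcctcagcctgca
Gfap: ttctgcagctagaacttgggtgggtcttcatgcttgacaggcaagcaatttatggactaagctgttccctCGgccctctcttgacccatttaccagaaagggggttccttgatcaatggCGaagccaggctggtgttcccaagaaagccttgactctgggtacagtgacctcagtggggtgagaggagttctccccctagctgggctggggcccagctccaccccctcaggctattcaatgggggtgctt
Ngfr: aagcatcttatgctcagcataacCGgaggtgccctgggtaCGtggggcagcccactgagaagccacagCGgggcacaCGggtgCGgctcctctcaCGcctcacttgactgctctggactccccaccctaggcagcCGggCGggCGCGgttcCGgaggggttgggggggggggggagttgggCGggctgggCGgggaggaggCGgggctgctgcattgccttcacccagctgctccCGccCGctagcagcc
Foxd3: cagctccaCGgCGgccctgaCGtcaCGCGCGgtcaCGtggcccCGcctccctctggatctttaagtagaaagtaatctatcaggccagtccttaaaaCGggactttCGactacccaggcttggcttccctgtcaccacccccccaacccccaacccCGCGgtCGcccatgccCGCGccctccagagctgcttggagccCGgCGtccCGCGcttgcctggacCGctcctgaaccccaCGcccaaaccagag
S100b and Gfap, both markers of glia, held 2 CpG each, and 18.8% of all 32851 promoters held fewer. Ngfr held 16 and Foxd3 held 21, with 74.6% and 83.7% of promoters holding fewer, against a median of 6 over all promoters. The letters ACAAAG and ACAATG, forms of the core bound by SOX factors, were searched on both strands. They were in 0 of these 4 windows, against 25.2% of all promoters, and 4 windows are too few to differ from that share. Other forms of the core were not searched, so the windows, that of Gfap included, may still hold SOX sites. Sox10, Cdh19 and Erbb3 are named only.

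In the Men1 knockout every array lay below every RIP-Cre array for 7 of 7 members as deposited, and limma called 6 of them lower at an adjusted p under 0.05, all but Ngfr. Over all genes 44.8% showed such a separation downwards and 37.8% were called lower, 53.5% being called in either direction. The median difference of the 7 members was -0.50, against -0.23 over all genes. After cyclic loess 6 members were separated downwards, all but Foxd3 (25.2% of genes), and 4 were called, Sox10, Cdh19, S100b and Gfap, where 16% of all genes were called lower and 34.5% in either direction. With the array median as a covariate none of the 7 was called, against 1.99% of genes, and Ngfr and Foxd3 were above 0. As the medians of these groups do not overlap, that fit cannot decide between array level and genotype.

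**Figure D1:**
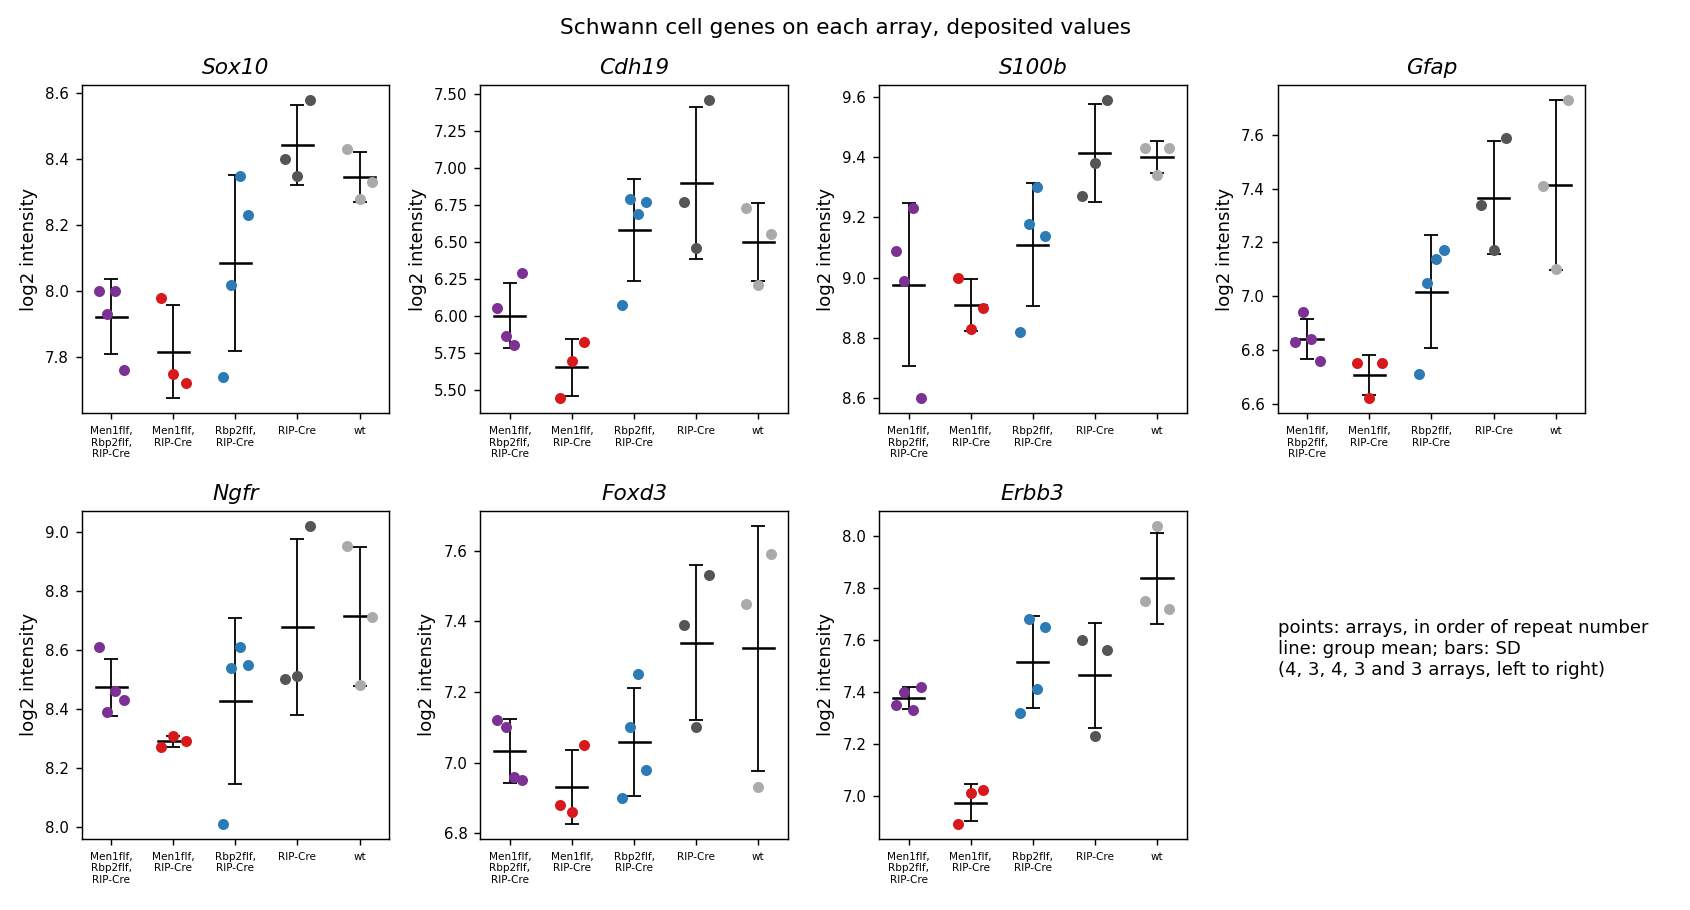
Log2 intensity of the 7 Schwann cell genes on each of the 17 arrays as deposited, with the groups in the order double knockout, Men1 knockout, Rbp2 knockout, RIP-Cre and wt along the horizontal axis. Points are single arrays, short lines are group means and bars are SD. The Men1 knockout points lie below all RIP-Cre points in every panel, while the Rbp2 knockout points overlap them.

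Sox10 is the transcription factor that specifies glia in the neural crest lineage and is needed at every later stage of the Schwann cell. Its level was 8.00, 7.93, 8.00 and 7.76 in the double knockout, 7.98, 7.75 and 7.72 in the Men1 knockout and 7.74, 8.02, 8.35 and 8.23 in the Rbp2 knockout. RIP-Cre islets had 8.40, 8.35 and 8.58, and wt islets 8.43, 8.28 and 8.33. The double and Men1 knockout arrays all lay below all control arrays, and the Rbp2 knockout arrays spanned the gap, with 1 of them at the level of the Men1 knockout. Against RIP-Cre, Sox10 fell by 0.63 in the Men1 knockout (SE 0.13, limma adjusted p = 0.00227), so that its intensity fell by 35.2%. It fell by 0.52 in the double knockout (SE 0.13, limma adjusted p = 0.00817). Genes of like level had median differences of -0.20 and -0.15. After cyclic loess the differences were -0.43 (limma adjusted p = 0.00656) and -0.38 (0.0137), and with the array median as a covariate they were -0.24 (0.407) and -0.24 (0.272). The call held in each of the 17 fits that left out 1 array, in both comparisons.

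S100b codes for a calcium-binding protein that is abundant in the cytoplasm of Schwann cells and astrocytes. It had 9.09, 8.99, 9.23 and 8.60 in the double knockout, 9.00, 8.83 and 8.90 in the Men1 knockout and 8.82, 9.18, 9.30 and 9.14 in the Rbp2 knockout. The controls had 9.27, 9.38 and 9.59 in RIP-Cre and 9.43, 9.34 and 9.43 in wt islets. No double or Men1 knockout array reached the lowest control array, and 1 of the 4 Rbp2 knockout arrays did. Against RIP-Cre, S100b fell by 0.50 in the Men1 knockout (SE 0.15, limma adjusted p = 0.0107) and by 0.44 in the double knockout (SE 0.14, limma adjusted p = 0.0249). Genes of its level hardly moved in the same comparisons, with medians of 0.0067 and 0.012, and cyclic loess left the differences at -0.51 (limma adjusted p = 0.0143) and -0.45 (0.0272). With the array median as a covariate they were -0.10 (0.807) and -0.15 (0.589). The call rested on RIP-Cre array 3 in both comparisons, since without it the adjusted p was 0.0575 in the Men1 knockout and 0.129 in the double knockout. For the double knockout it was also lost without array 2 (0.0515) and without array 4 (0.0783).

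Gfap codes for the intermediate filament of astrocytes and of unmyelinating Schwann cells. It had 6.83, 6.94, 6.84 and 6.76 in the double knockout, 6.75, 6.62 and 6.75 in the Men1 knockout and 6.71, 7.05, 7.14 and 7.17 in the Rbp2 knockout. RIP-Cre islets had 7.34, 7.17 and 7.59, and wt islets 7.41, 7.10 and 7.73. The double knockout arrays all lay above the Men1 knockout arrays and below every control array. Against RIP-Cre, Gfap fell by 0.66 in the Men1 knockout (SE 0.15, limma adjusted p = 0.0032) and by 0.52 in the double knockout (SE 0.14, limma adjusted p = 0.0128). Genes of like level were lower too, with medians of -0.39 and -0.24. After cyclic loess Gfap was still called, at -0.31 (limma adjusted p = 0.0203) and -0.30 (0.0243). With the array median as a covariate the differences were -0.17 (0.577) and -0.17 (0.443). Without RIP-Cre array 3 the double knockout's adjusted p was 0.0816.

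Cdh19 codes for a cadherin found on Schwann cell precursors and on later Schwann cells. It had 6.05, 5.86, 5.80 and 6.29 in the double knockout, 5.44, 5.69 and 5.82 in the Men1 knockout and 6.07, 6.79, 6.69 and 6.77 in the Rbp2 knockout. The controls had 6.77, 6.46 and 7.46 in RIP-Cre and 6.73, 6.21 and 6.55 in wt islets. Of the 4 Rbp2 knockout arrays 3 lay among the controls, and the Men1 knockout arrays lay below all of them. Against RIP-Cre, Cdh19 fell by 1.25 in the Men1 knockout (SE 0.23, limma adjusted p = 0.00111) and by 0.90 in the double knockout (SE 0.22, limma adjusted p = 0.00858). Its means of 6.0 in the double knockout and 5.65 in the Men1 knockout lay below 6.09, the median level of the receptor genes, so the size of these differences is uncertain. Genes of its level had medians of -0.37 and -0.24. The differences were -0.86 (limma adjusted p = 0.00196) and -0.64 (0.0119) after cyclic loess. Once the array median was a covariate they were -0.45 (0.306) and -0.33 (0.341). Without RIP-Cre array 3, the highest Cdh19 array of all, the Men1 knockout difference was -0.97 and still called, and that of the double knockout was -0.62 (limma adjusted p = 0.0595).

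Erbb3 codes for the receptor through which axonal neuregulin acts on Schwann cells, and it is also made by epithelial cells. It had 7.35, 7.40, 7.33 and 7.42 in the double knockout, 6.89, 7.01 and 7.02 in the Men1 knockout and 7.32, 7.68, 7.41 and 7.65 in the Rbp2 knockout. RIP-Cre islets had 7.60, 7.23 and 7.56, and wt islets 7.75, 8.04 and 7.72. The Men1 knockout stood alone at the low end, and the double knockout lay within the RIP-Cre range. Against RIP-Cre, Erbb3 fell by 0.49 in the Men1 knockout (SE 0.12, limma adjusted p = 0.00493). Genes of its level had a median of -0.37 there, and after cyclic loess the difference was -0.17 (limma adjusted p = 0.3), and -0.37 (0.281) with the array median as a covariate. Its difference in the double knockout was -0.088 (95% interval -0.33 to 0.15, limma adjusted p = 0.543). That difference had no settled direction, at 0.12 after cyclic loess (0.467) and -0.0056 with the covariate (0.989). It also depended on the control, as the double knockout mean of 7.375 lay near 7.46 in RIP-Cre but below 7.84 in wt islets. Over 49 alternatives, some with wt as the control, it ran from -0.46 to 0.22 and was called in 2.

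Ngfr codes for the low-affinity neurotrophin receptor p75, and Foxd3 for a transcription factor of premigratory neural crest that also holds Schwann cell precursors in the glial fate. Ngfr was 8.39 to 8.61 in the double knockout, 8.27 to 8.31 in the Men1 knockout and 8.01 to 8.61 in the Rbp2 knockout, against 8.50 to 9.02 in RIP-Cre and 8.48 to 8.95 in wt islets. Its Men1 knockout arrays lay below all control arrays, yet its difference of -0.39 did not pass the test (SE 0.16, limma adjusted p = 0.0555). After cyclic loess it was -0.28 (limma adjusted p = 0.149), and the direction turned with the array median as a covariate, to 0.23 (0.313). Foxd3 was 6.95 to 7.12 in the double knockout, 6.86 to 7.05 in the Men1 knockout and 6.90 to 7.25 in the Rbp2 knockout, against 7.10 to 7.53 in RIP-Cre and 6.93 to 7.59 in wt islets. Foxd3 fell by 0.41 in the Men1 knockout (SE 0.15, limma adjusted p = 0.0318), close to the median of -0.39 over genes of its level. After cyclic loess its difference was -0.064 (limma adjusted p = 0.676), and with the array median as a covariate it was 0.034 (0.941). The deposited-value call of Foxd3 was lost in 4 of the 17 fits that left out 1 array, where its adjusted p reached 0.142. The double knockout differences were -0.20 for Ngfr (95% interval -0.53 to 0.12, limma adjusted p = 0.292) and -0.31 for Foxd3 (95% interval -0.61 to -0.009, limma adjusted p = 0.0962). On the loess scale these were -0.12 (0.539) and -0.083 (0.578), and with the covariate both were above 0, at 0.23 (0.186) and 0.010 (0.979).

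**Figure D2:**
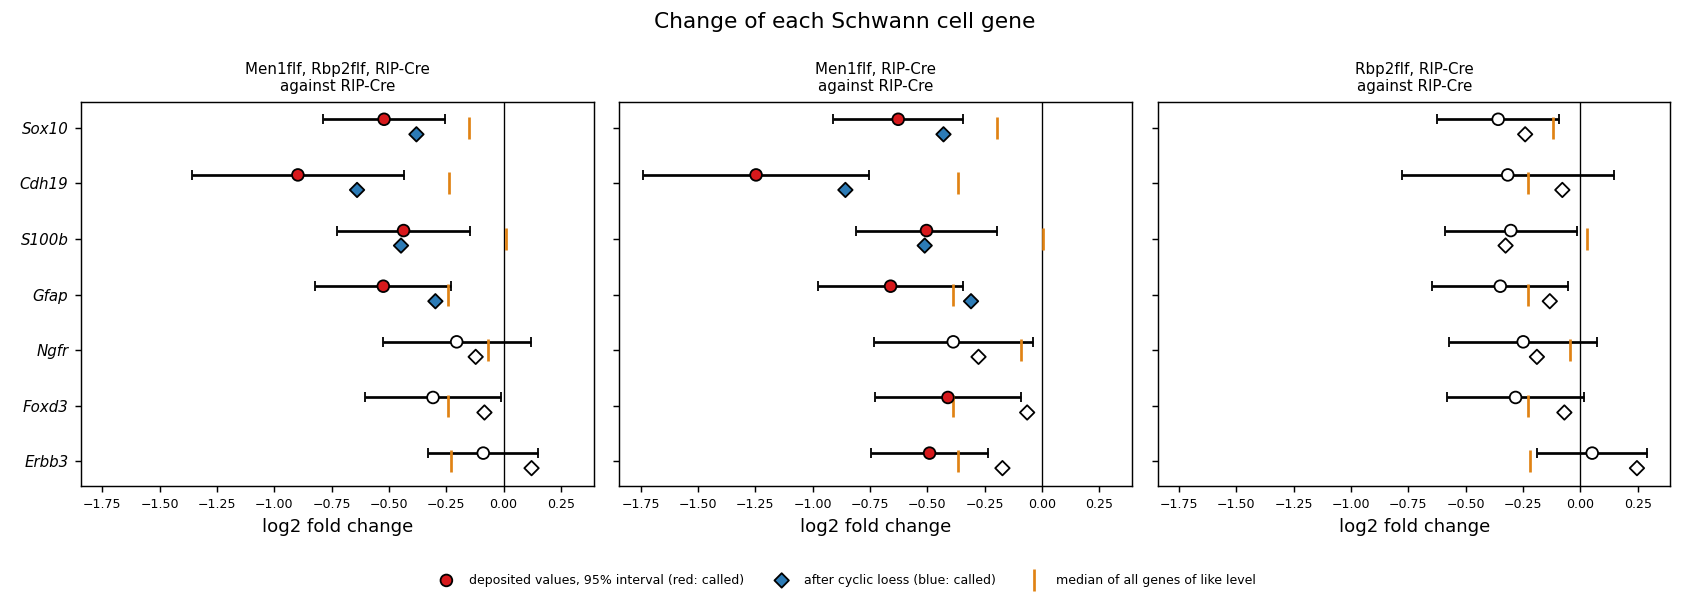
Log2 difference from RIP-Cre of each member in the double, Men1 and Rbp2 knockouts, as deposited (circles, with 95% intervals from limma, filled where called) and after cyclic loess (diamonds), beside the median difference of genes of like level. Sox10, S100b, Gfap and Cdh19 stay below 0 on both scales in the double and Men1 knockouts, while Foxd3 moves to near 0 after cyclic loess.

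In the double knockout against RIP-Cre, 4 of 7 members were called lower and 4 were separated from every RIP-Cre array. These were Sox10, Cdh19, S100b and Gfap in both counts, against 20.6% of all genes called lower, 33.7% called in either direction and 24.9% separated downwards. The same 4 were called after cyclic loess, where 11.4% of all genes were called lower and 25.3% in either direction, and 3 of them, Sox10, S100b and Gfap, were also separated (16.1%). With the array median as a covariate none was called, against 1.4% of genes. The count depended on RIP-Cre array 3: without it 1 member, Sox10, was called as deposited and 0 after cyclic loess. In the Men1 knockout the counts without that array were 4 as deposited and 2 after cyclic loess.

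In the Rbp2 knockout against RIP-Cre no member was called and none was separated, against 13.4% of genes called and 15.4% separated downwards. The differences were -0.36 for Sox10 (limma adjusted p = 0.0612), -0.35 for Gfap (0.0885), -0.32 for Cdh19 (0.281) and -0.30 for S100b (0.116). That of Erbb3 was 0.052 (0.743), that of Foxd3 -0.28 (0.149) and that of Ngfr -0.25 (0.229). The intervals do not show that the gene's loss leaves these genes alone: that of Sox10 ran from -0.62 to -0.094 and that of Cdh19 from -0.78 to 0.15. After cyclic loess, where 9.42% of genes were called, none of the 7 was called either, and 1 of 7, Gfap, was separated downwards, against 12% of genes. The loess values were -0.24 for Sox10 (limma adjusted p = 0.123), -0.13 for Gfap (0.33), -0.079 for Cdh19 (0.786) and -0.33 for S100b (0.127). Those of Erbb3, Foxd3 and Ngfr were 0.25 (0.167), -0.070 (0.678) and -0.19 (0.364). With the array median as a covariate Cdh19 and Ngfr turned to 0.19 (0.688) and 0.14 (0.535) and Foxd3 to 1.96e-05, while Sox10 was at -0.11 (0.727), S100b at -0.047 (0.922), Gfap at -0.037 (0.931) and Erbb3 at 0.13 (0.756).

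RIP-Cre islets were set against wt islets to ask what the transgene does by itself. No member was called, and no gene of the 19938 was (0%), while 552 genes had an unadjusted p under 0.05. Sox10, S100b, Gfap, Ngfr and Foxd3 differed by 0.10 or less in size. Cdh19 differed by 0.40 (95% interval -0.094 to 0.89). Erbb3 was lower in every RIP-Cre array than in every wt array, a separation shown by 1.71% of genes, with a difference of -0.37 (95% interval -0.63 to -0.12, unadjusted p = 0.007).

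The double knockout was then compared with each single knockout. Against the Men1 knockout no member was called, where 1.67% of genes were. Erbb3 came nearest, at 0.40 (95% interval 0.16 to 0.64, limma adjusted p = 0.0986), and it was higher in all 4 double knockout arrays than in all 3 Men1 knockout arrays, as were Gfap and Ngfr (14.3% of genes). Cdh19 differed by 0.35 (95% interval -0.11 to 0.81), and Sox10, S100b, Gfap, Ngfr and Foxd3 by 0.068 to 0.18. Against the Rbp2 knockout no member was called, where 1.2% of genes were. Cdh19 differed most, by -0.58 (95% interval -1.01 to -0.15, limma adjusted p = 0.217) and by -0.56 after cyclic loess (0.0752). When the array median was a covariate it differed by -0.52 (0.0435). With the array median in the model this was the only call of a member in any comparison, against 2.56% of genes here, 2.28% between the double and Men1 knockouts, 0.211% in the Rbp2 knockout against RIP-Cre and 0.1% for the interaction.

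The interaction, which is the effect of Rbp2 loss in Men1 knockouts minus its effect in RIP-Cre mice, was above 0 for all 7 members as deposited. It was 0.67 for Cdh19, 0.49 for Gfap, 0.46 for Sox10, 0.43 for Ngfr, 0.39 for Foxd3, 0.37 for S100b and 0.35 for Erbb3. No member was called (limma adjusted p from 0.0876 to 0.166), against 3.39% of genes, and the median over all genes was itself 0.20. After cyclic loess the 7 values were 0.048 to 0.39, with none called, against 2.53% of genes. Once each array's median was a covariate, 4 of 7 were below 0 and none was called. The values were then -0.069 for Cdh19, -0.13 for Ngfr, -0.024 for Foxd3, -0.00082 for S100b, 0.033 for Gfap, 0.11 for Sox10 and 0.24 for Erbb3.

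The level of each member was also read along the groups. By group mean, Sox10, Cdh19, S100b, Gfap, Foxd3, Ngfr and Erbb3 were all lowest in the Men1 knockout. Sox10 averaged 7.92 ± 0.11 in the double knockout, 7.82 ± 0.14 in the Men1 knockout, 8.09 ± 0.27 in the Rbp2 knockout, 8.44 ± 0.12 in RIP-Cre and 8.35 ± 0.076 in wt islets (SD, n = 4, 3, 4, 3 and 3). Its neighbours in that order, the Men1 and double knockouts, the double and Rbp2 knockouts, and RIP-Cre and wt, differed by less than or about the spread between arrays. Cdh19 averaged 6.0 ± 0.22, 5.65 ± 0.19, 6.58 ± 0.34, 6.90 ± 0.51 and 6.50 ± 0.26 in the same groups, with the Rbp2 knockout between wt and RIP-Cre.

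**Figure D3:**
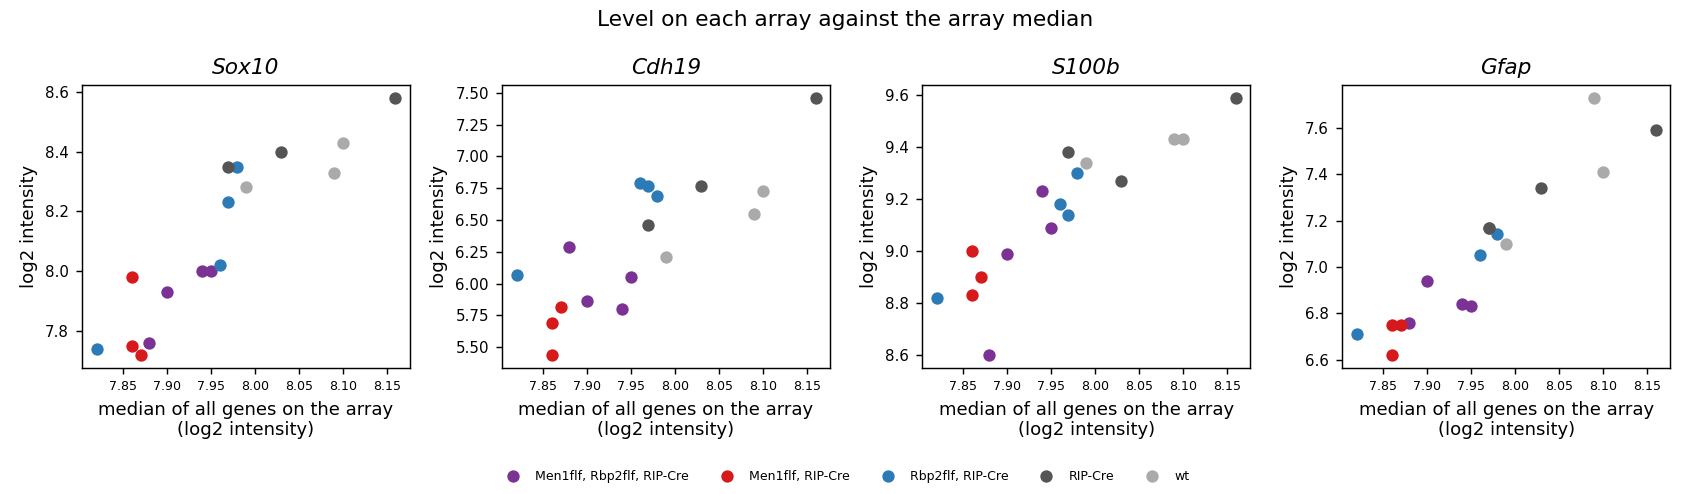
Level of Sox10, Cdh19, S100b and Gfap (log2 intensity, vertical axis) against the median of all genes on the same array (log2 intensity, horizontal axis), 1 point per array, coloured by group. Arrays with higher medians tend to have higher levels, and Rbp2 knockout array 1, with the lowest median of 7.82, lies at the level of the Men1 knockout arrays except for Cdh19.

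How far the array level and the genotype move together can be read from arrays with like medians, a reading chosen after the values were seen. Rbp2 knockout array 1 (median 7.82) had 7.74 for Sox10, 6.71 for Gfap and 8.82 for S100b, of which Sox10 and Gfap lie inside the Men1 knockout ranges and S100b just below the lowest of them, 8.83, at medians of 7.86 to 7.87. Its Cdh19 level of 6.07 was above all 3 Men1 knockout arrays. Double knockout arrays 1 and 3 (medians 7.95 and 7.94) had Cdh19 at 6.05 and 5.80, against 6.79, 6.69 and 6.77 in Rbp2 knockout arrays 2, 3 and 4 (medians 7.96, 7.98 and 7.97). On the same arrays S100b overlapped, at 9.09 and 9.23 against 9.18, 9.30 and 9.14. Sox10 was at 8.00 and 8.00, just below 8.02, 8.35 and 8.23, and Gfap at 6.83 and 6.84 against 7.05, 7.14 and 7.17. The part of the array level in the member differences was not tested beyond the covariate, which cannot separate it from genotype where the medians do not overlap.

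Genes outside the list that mark the same cells, or the pathways that act on them, came from lists chosen for glia and nerve. Their counts are to be read beside the shares of all genes called in the same comparison. A gene named for a knockout was among the furthest of its list there, and may have moved as far in another. In the double knockout 20.6% of all genes were called lower and 13% higher as deposited, and 11.4% and 13.9% after cyclic loess. In the Men1 knockout 37.8% were called lower and 15.7% higher as deposited, and 16% and 18.4% after cyclic loess. The Rbp2 knockout had 6.7% of all genes called lower and as many higher as deposited, and 3.81% and 5.61% after cyclic loess.

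Of 27 other glial and Schwann precursor genes, 14 fell and 2 rose in the Men1 knockout, with a median of -0.50 against -0.23 over all genes, and after cyclic loess 7 fell and 3 rose with a median of -0.22. Entpd2, an ectonucleotidase of glia, fell by 0.83 (limma adjusted p = 0.00176) and Gfra3, the artemin co-receptor, by 0.65 (0.000762). L1cam, an adhesion molecule of axons and unmyelinated Schwann cells, rose by 0.52 (0.00332) and Postn, a matrix protein also made by fibroblasts, by 0.55 (0.0273). The double knockout had 7 lower and 2 higher as deposited, and 4 lower and 2 higher after cyclic loess. Sox2, a factor of immature glia and progenitors, fell by 0.64 there (limma adjusted p = 0.0033) and Gfra3 by 0.41 (0.0106, but 0.0521 after cyclic loess). The mean of Sox2 was as low in the Men1 knockout, at 7.49 against 7.51 in the double knockout and 8.15 in RIP-Cre islets. Of the 27, 1 was called in the Rbp2 knockout as deposited, a share below that of all genes. It was Sostdc1, lower by 0.53 (0.0469, but 0.0669 after cyclic loess). Its mean was 8.06 in the Men1 knockout, 8.215 in the double knockout and 8.235 in the Rbp2 knockout, against 8.76 in RIP-Cre islets.

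Myelin genes are active in the myelinating kind of Schwann cell, but several on this list are also made by other cells. Their changes in whole islets cannot be assigned to Schwann cells. Of 16 measured, 7 fell and 0 rose in the Men1 knockout (median -0.34), but after cyclic loess 1 fell (median -0.11). Egr2, the master regulator of myelination, fell by 0.50 (limma adjusted p = 0.00297, and 0.0408 after cyclic loess), and Ugt8a, which makes the myelin lipid galactosylceramide, fell by 0.64 (0.00188, and 0.0942 after cyclic loess). Among them 3 fell and 1 rose in the double knockout (2 and 1 after cyclic loess), with Ugt8a lower by 0.69 (0.00231), Nfasc, a protein of nodes of Ranvier, lower by 0.55 (0.00824) and Pmp22 higher by 0.58 (0.0158). In the Rbp2 knockout 2 fell, Mag by 0.62 (0.0485, but 0.178 after cyclic loess) and Nfasc by 0.43 (0.0441). The mean of Mag was 6.52 in the Men1 and in the Rbp2 knockout and 6.44 in the double knockout, against 7.14 in RIP-Cre islets.

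Neuregulin, made by axons, signals through ErbB receptors to keep Schwann cells alive. Of 18 genes of this pathway, 8 fell and 4 rose in the Men1 knockout (median -0.28), 8 fell and 1 rose in the double knockout (median -0.28), and 3 fell and 0 rose in the Rbp2 knockout (median -0.18). After cyclic loess 6 fell and 3 rose in the Men1 knockout, 4 fell and 1 rose in the double knockout and 2 fell in the Rbp2 knockout. The ligand Nrg1 fell by 0.73 in the double knockout (limma adjusted p = 0.00862) and by 0.63 in the Rbp2 knockout (0.0337). Nrg4 fell by 0.55 in the Rbp2 knockout (0.0209, but 0.0977 after cyclic loess). Neither was higher in the Men1 knockout than in the Rbp2 knockout. Nrg1 averaged 7.69 in the Men1 and 7.84 in the Rbp2 knockout, against 8.47 in RIP-Cre islets. Nrg4 averaged 6.72 and 6.74, against 7.29. In the Men1 knockout the adaptor Gab2 fell by 0.87 (0.000244) and Adgrg6, a receptor needed for Schwann cells to myelinate, by 0.85 (0.00256). The exchange factor Sos1 rose by 0.54 there (0.00167) and the kinase subunit Pik3ca by 0.41 (0.004).

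Of 17 neurotrophin pathway genes, 9 fell and 6 rose in the Men1 knockout (median -0.43), 8 fell and 4 rose in the double knockout (median -0.35), and 0 fell and 1 rose in the Rbp2 knockout (median -0.20). After cyclic loess 6 fell and 4 rose in the Men1 knockout, 4 fell and 3 rose in the double knockout and none was called in the Rbp2 knockout. Lingo1, a co-receptor that works with Ngfr, rose by 1.29 in the Men1 knockout (limma adjusted p = 3.6e-06) and by 0.88 in the double knockout (0.00017). Ntrk3, a neurotrophin receptor, rose by 1.10 in the Men1 knockout (0.00066), while the sortilin family members Sorcs2 and Sorcs1 fell by 0.99 (0.000365) and 0.71 (0.00102, but 0.0685 after cyclic loess). The growth factors Gdnf and Artn fell in the double knockout by 0.50 (0.00671) and 0.63 (0.00824), and their receptor Ret rose by 0.50 (0.00499). The gene called in the Rbp2 knockout was Maged1, which binds Ngfr, at 0.32 (0.0352) as deposited, but after cyclic loess it was at -0.045 (0.695), so neither the call nor the direction held.

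Genes of nerve fibres moved in both directions. Of 19 measured, 11 fell and 3 rose in the Men1 knockout (median -0.44), and after cyclic loess 2 fell and 4 rose (median -0.082). Hand2, a factor of sympathetic neurons, fell by 0.67 (limma adjusted p = 0.00263), and Ddc and Th, enzymes of catecholamine synthesis that beta cells also make, rose by 1.14 (0.00248) and 1.00 (0.00566). Of the same genes 7 fell and 1 rose in the double knockout (1 and 1 after cyclic loess), with Ddc higher by 0.84 (0.0142), and in the Rbp2 knockout Ddc alone rose, by 0.86 (0.0298). Melanocytes share the neural crest origin and Sox10: of 7 of their genes 4 fell in the Men1 knockout, and after cyclic loess 0 fell and 1 rose.

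**Figure D4:**
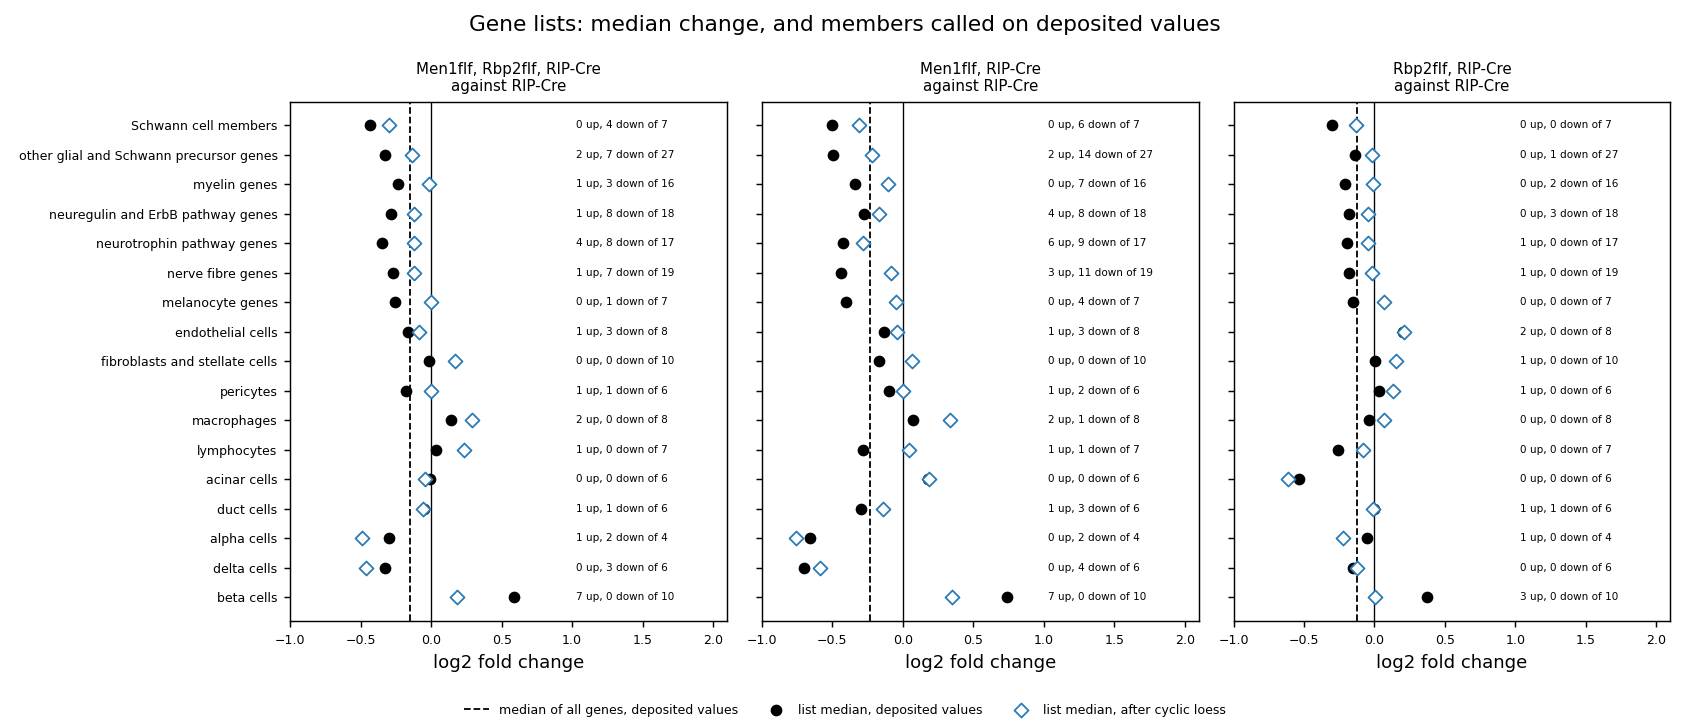
Median log2 difference from RIP-Cre of each gene list (horizontal axis) in the double, Men1 and Rbp2 knockouts, as deposited and after cyclic loess, with the counts of members called higher (up) and lower (down) as deposited. The Schwann cell genes have deposited medians of -0.44, -0.50 and -0.30, and the beta cell genes have deposited medians of 0.59, 0.74 and 0.37.

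Markers of the other cells that an islet preparation holds moved with the list in part, and their part in the member differences was not tested. Summed on the linear scale, the 7 Schwann cell genes reached 1431 to 1674 in the double knockout, 1383 to 1461 in the Men1 knockout and 1375 to 1914 in the Rbp2 knockout, against 1876 to 2415 in RIP-Cre and 1912 to 2196 in wt islets. The sum of the 10 beta cell genes ran the other way, at 66171 to 76643 in the double knockout, 72589 to 78514 in the Men1 knockout and 60402 to 67528 in the Rbp2 knockout, against 42836 to 55969 in RIP-Cre islets. As deposited 7 of 10 were called higher and none lower in the double and in the Men1 knockout. After cyclic loess 3 were higher and 3 lower in the double knockout, and 6 higher and 2 lower in the Men1 knockout. Fibroblast and stellate cell genes, which share the islet's envelope with glia, had 0 of 10 called in either direction in both comparisons, and a median of -0.17 in the Men1 knockout (0.067 after cyclic loess). Their sum was 2942 to 3727 in the double knockout and 3027 to 3387 in the Men1 knockout, against 2811 to 3825 in RIP-Cre islets. In the Men1 knockout 4 of 6 delta cell genes (median -0.70) and 2 of 4 alpha cell genes (median -0.66) fell and none rose. Endothelial genes fell in 3 of 8 and rose in 1, pericyte genes fell in 2 of 6 and rose in 1, and duct genes fell in 3 of 6 and rose in 1. Macrophage genes fell in 1 of 8 and rose in 2, lymphocyte genes fell in 1 of 7 and rose in 1, and none of 6 acinar genes was called. Those counts are as deposited, where 37.8% of all genes were called lower and 15.7% higher. After cyclic loess, where 16% of all genes were called lower and 18.4% higher, all 6 delta and all 4 alpha cell genes and 2 endothelial genes were called lower. On that scale 2 pericyte, 1 duct, 4 macrophage and 1 lymphocyte genes were called higher, and no other gene of these lists was called. No listed gene was at 0 on any array.

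For each member, the genes whose levels followed it most closely were taken by Pearson's r over the 17 arrays after cyclic loess, among the 9507 or 9508 named genes brighter than the median gene. These values describe arrays that share groups and preparation, and no test was made. Sox10 was followed by Stk38l (r 0.93), Cebpb (0.93), Mapk4 (0.92), Fam98c (0.91) and Fzr1 (0.91), and S100b by Rbm15b (0.97), Fam166c (0.97), Fam181b (0.96), Epop (0.96) and Aifm2 (0.96). Gfap was followed by Ropn1l (0.91), Sgta (0.90), Tnnt2 (0.90), Bri3 (0.89) and Atf7ip (0.89), and Cdh19 by Acvrl1 (0.91), Lrp5 (0.90), Sema3f (0.90), Zpr1 (0.88) and Nbl1 (0.87). Ngfr was followed by Sbpl (0.94), Prss27 (0.93), Adgrb2 (0.92), S1pr2 (0.91) and Pitx3 (0.90). Foxd3 had lower values, with Med16 (0.79), Ptk2b (0.78), Casp9 (0.70), Cplane2 (0.70) and Bmt2 (0.68). Erbb3 was followed by Crip1 (0.86), Tpm1 (0.85), Gpa33 (0.85), Hnf4a (0.84) and Rhou (0.83). Within groups the members were less alike for some pairs than for others, and some pairs ran in opposite directions. S100b and Sox10 had r 0.89 over all arrays and 0.71 over deviations from the group means. Of 19937 genes, Sox10 ranked 411 in likeness to S100b over all arrays and 896 within groups. S100b ranked 39 and 173 in likeness to Sox10. Cdh19 and Ngfr had 0.54 and 0.74, but Cdh19 and Sox10 had 0.56 and 0.014. Erbb3 was below 0 within groups with Foxd3 (-0.48), S100b (-0.47), Ngfr (-0.41), Gfap (-0.39) and Sox10 (-0.29), and at 0.051 with Cdh19. Foxd3 and Sox10 were at -0.092 there. Within groups Cdh19 was followed by Col1a2 (0.86), Kcna1 (0.85), Sema3f (0.85), Lamb2 (0.85) and Col3a1 (0.84). Of these Kcna1 is on the list of other glial and Schwann precursor genes, and Col1a2 and Col3a1 are collagens of fibroblasts. The closest within groups was Lpar3 (0.85) for Sox10, Fzd10 (0.95) for S100b and Tnnt2 (0.90) for Gfap. It was Adgrb2 (0.96) for Ngfr, Calcoco1 (0.85) for Foxd3 and Cnpy2 (0.94) for Erbb3. None of the 5 closest genes of these members, within groups or over all arrays, is on a list used here.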

How the data were processed

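The authors deposited log2 intensities of 35512 probe sets on each of 17 arrays. Their base was inferred from the numbers, since 82.3% of those between 0 and 3 lie at log2 of multiples of 0.25. How the authors corrected and normalized them is not given in the sources here. Of the probe sets, 21789 name 1 gene, 1621 several and 12102 none in the platform's gene table. Each gene was taken as its probe set with the highest mean, which gave 19938 genes. The smallest root mean square difference between 2 arrays was 0.357, so no array was a copy. Intensities carry no counts, and the number of arrays limits the precision.

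A model of the 5 group means was fitted by limma 3.58.1 under R 4.3.3 (lmFit, eBayes) over the 17 arrays, without a block, and a gene was called at a Benjamini-Hochberg adjusted p under 0.05 over all genes of a comparison. The procedure was tested on simulated data with independent noise and no shift in array level. That test therefore says nothing about the array-level differences described above. The members and the 16 other lists (193 genes, 175 measured) were chosen with earlier results of these data known. Named genes are the members and, of each list, up to 2 at each end of the moderated t against RIP-Cre, from which the text picks those of the glial and nerve lists, and for likeness the 5 genes with the highest r. Alternatives were other normalizations, filters, controls, covariates and blocks, and each array left out; cyclic loess with arrays left out, and the array median with pooled controls, were added after seeing the data. Repeat numbers are not stated to pair arrays of different groups. Deviations of arrays with the same number were not alike on the median, which does not exclude pairing of some.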

Additional observations from a re-analysis of the deposited data

Results flagged for a closer look

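In the Rbp2 knockout, 1 array stood far below the other 3 for both Cdh19 and Ngfr. Cdh19 was 6.07 on array 1, against 6.69 to 6.79 on the others, a gap of 0.861 of the group's whole range. Ngfr was 8.01 on array 1, against 8.54 to 8.61 on the others, a gap of 0.883 of the range. Both gaps pass Dixon's 95% critical value for 4 arrays. Of 14 such group tests these were the 2 that passed, and chance alone passes about 1 in 20. It is the array with the lowest median of all (7.82) and the lowest level of its group for 7 of 7 members.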

How the results depend on the processing

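Sox10, S100b and Gfap were below 0 against RIP-Cre in 49 of 49 alternatives, and Cdh19 in 48 of 48, in both the Men1 and the double knockout. The other members changed sign in some: Ngfr was above 0 in 2 of 49 in the Men1 knockout (up to 0.23) and in 4 in the double knockout, Foxd3 in 2 in each, and Erbb3 in 21 in the double knockout. In the Rbp2 knockout Cdh19 was above 0 in 6 of 48, Ngfr and Foxd3 in 2 each, and Erbb3 was below 0 in 5. The number of members called was less stable. In the Men1 knockout it was 6 as deposited, 0 with the array median as a covariate, also 0 with that covariate and pooled controls, and 3 after cyclic loess without wt 1, wt 3 and RIP-Cre 3. Leaving out 1 array gave 4 to 7 as deposited and 2 to 4 after cyclic loess. In the double knockout it was 4 as deposited, 0 with either use of the array median, 1 without those 3 arrays and 1 without them after cyclic loess, with 1 to 5 and 0 to 4 on leaving out 1 array. In the Rbp2 knockout it was 0 as deposited, 1 with a filter at the 25th percentile, 2 with wt and RIP-Cre pooled, and 0 to 1 on leaving out 1 array on both scales. Between the double and Men1 knockouts it was 1 (Erbb3) with only the arrays compared. Between the double and Rbp2 knockouts it was 1 (Cdh19) with the array median and 0 to 1 on leaving out 1 array after cyclic loess. The interaction had 1 (Erbb3) with wt and 1 with pooled controls. Foxd3 in the Men1 knockout turned to 0.034 with the array median and 0.050 with it and pooled controls. The cause of these changes was not tested. Arrays with the same repeat number were not alike on the median (31 same-number pairs, median r 0.011), which does not exclude pairing of some. With the replicate block 6 members were called in the Men1 and 4 in the double knockout, as without it. The number of all genes called moved more, and its ranges over the alternatives here leave out the fits without 1 array. It was 6716 as deposited, 5048 once loess-normalized and 280 to 9256 over these alternatives in the double knockout. In the Men1 knockout it was 10660, 6875 and 396 to 12567, and in the Rbp2 knockout 2672, 1879 and 42 to 5710. For the interaction it was 675 as deposited, 1933 with the replicate block and 20 to 2448 over these alternatives. Leaving out 1 array as deposited gave 22 to 2783 for the interaction. Between the double and Men1 knockouts the number was 333 (241 to 499, and 111 to 416 on leaving out 1 array). Between the double and Rbp2 knockouts it was 239 (185 to 510, and 109 to 304 on leaving out 1 array). The lowest counts against RIP-Cre came with the array median, the highest with pooled controls. RIP-Cre against wt had 0, but 107 without the same 3 arrays and 143 when these were also loess-normalized. Leaving out 1 array as deposited gave 0 to 26 there. Alternatives that combine 2 choices were chosen after seeing the data.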
